A study of Mus musculus with 13 samples.

Results

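The clustered histone genes are the genes of the linker histone H1 and the core histones H2A, H2B, H3 and H4 that lie together in 3 gene clusters, with 1 H4 gene at a place of its own. They were taken as every gene whose GENCODE M21 symbol begins with Hist1h, Hist2h, Hist3h or Hist4h, which gave 67 of the 37785 genes counted. All 67 are annotated as protein coding, and 3 further symbols of this kind, all of them pseudogenes, were not analysed here. The set was selected on its measured CPM across the ages, so the levels and changes of its members below are a description, and no test of them is offered as support. The series holds total RNA of cells sorted with magnetic beads against Pdgfra, a receptor on oligodendrocyte precursor cells (OPCs), from wild-type C57BL/6 mouse brain. The 13 bulk libraries come from embryonic day 16 (E16, 3 libraries), postnatal day 12 (P12, 3), postnatal day 80 (P80, 3) and postnatal day 310 (P310, 4). The labels' age field reads P81 for 2 of the P80 libraries and P306 to P308 for the P310 libraries. No gene was altered and no agent was given in any group, and beads that remove myelin debris were used at P80 and P310 only. Counts of P12 replicates 2 and 3 were nearly as close as chance in counting allows (squared differences of 2.34 times that noise over 16120 genes, where the other 14 pairs of an age gave 16.6 to 179), and the 2 were summed and counted as 1 sample, P12 replicate 2-3. This left 12 samples, with n = 3, 2, 3 and 4 at the 4 ages. The labels do not say whether a sample is 1 animal or a pool, so the spread between samples may be partly technical.

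Replication-dependent histone genes supply the histones that package newly made DNA, and their RNA rises in S phase and is degraded when DNA synthesis ends. Their transcripts usually have no poly(A) tail and end a few bases after a short stem-loop, which is bound by the stem-loop binding protein Slbp and cut by a complex guided by the U7 small nuclear RNA. Cells that leave the cell cycle rely more on replacement histones encoded elsewhere, and some clustered genes are known also to give polyadenylated RNA from a site further downstream. The libraries were made from total RNA with random priming, so transcripts without a poly(A) tail can be counted.

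The stem-loop is the sequence that defines this family. A stem of 6 bases that opens with GG and closes with CC around a loop of 4 bases that begins with TT was found in the annotated transcripts of 44 of the 67 genes (65.7%), and in 15 of 21818 other coding genes (0.0688%). The other 23 members have models in which these letters were not found, some of them short, such as Hist1h4k with 312 bases of exon. The same 16 bases were present in 26 members from the H1, H2A, H2B and H3 classes, whereas 7 H4 genes shared another form. The following RNAs are written as DNA from the GENCODE M21 transcripts, with the stem-loop in capitals. They show the common form in members described below, the H4 form, and forms that vary in the loop or, as in Hist1h4j, the stem.
Hist1h1c: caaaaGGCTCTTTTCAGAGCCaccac
Hist1h2be: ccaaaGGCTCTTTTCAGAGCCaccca
Hist2h2aa1: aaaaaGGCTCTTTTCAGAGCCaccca
Hist1h3b: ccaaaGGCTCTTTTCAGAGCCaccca
Hist1h3c: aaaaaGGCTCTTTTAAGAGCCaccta
Hist2h2ac: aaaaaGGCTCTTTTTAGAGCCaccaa
Hist1h4d: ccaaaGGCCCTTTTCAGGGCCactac
Hist4h4: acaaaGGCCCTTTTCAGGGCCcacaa
Hist2h4: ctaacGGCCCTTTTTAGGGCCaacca
Hist1h4j: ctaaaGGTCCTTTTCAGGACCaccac
The members differ in what follows. For each member the matching model with the fewest bases after the stem-loop was taken. In 22 of the 44 this model runs on for more than 150 bases after the stem-loop. Examples are Hist1h1c with 840 bases, Hist1h1e with 1153, Hist1h4d with 770, Hist1h2be with 1861 and Hist4h4 with 2445. In the other 22 it ends within 150 bases, as in Hist1h3b with 51 bases, Hist2h2aa1 with 35 and Hist1h2bf with 29. The limit of 150 bases was chosen after the sequences were seen.

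The genes lie on 4 chromosomes of GRCm38. The Hist1 cluster holds 54 of them on chromosome 13 between 21715763 and 23934851, the Hist2 cluster 10 on chromosome 3 between 96219865 and 96270132, and the Hist3 cluster 2 on chromosome 11 between 58948920 and 58956830. Hist4h4 stands alone on chromosome 6 at 136801553 to 136804415. An H2A and an H2B gene are transcribed away from each other in 12 pairs, with a median of 259.5 bases between their starts. All 6 H1 genes are in the Hist1 cluster.

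Promoter windows of 300 bases, from 250 before to 50 after the start, were available in the RefSeq table (GRCm38.p6) for 62 of the 67 genes. The CCAAT box, in either orientation, was in 85.5% of them against 37.4% of all 32851 promoters in the table. It was in every H1, H2A, H2B and H3 window but in 3 of 12 H4 windows. TATAAA was in 56.5% of the members' windows and 13.6% of all. The octamer ATTTGCAT, known from H2B promoters, was in 7 of 18 H2A and 7 of 16 H2B windows, in no window of the other classes, and in 1.74% of all promoters. The letters AAACACA of the H1 box were in 5 of 6 H1 windows against 7.18% of all, and GGTCCG, part of the H4 element bound by Hinfp, in 11 of 12 H4 windows against 8.25% of all. Both strands were searched, each motif was counted apart from the others, and a match describes the sequence only. Windows of an H2A and H2B pair can overlap, so the same site can count in both classes. The octamer of Hist1h2ae and Hist1h2bg is such a site, and the H2A and H2B counts are therefore not independent. The windows below are examples from an H1, an H2A, an H3 and an H4 gene, with each of these motifs in capitals on either strand. They are not typical in every motif. The H4 window holds a CCAAT box, as 3 of 12 do, and the H1 window lacks TATAAA, which 4 of 6 hold.
Hist1h1c, plus strand, chr13:23738557-23738856: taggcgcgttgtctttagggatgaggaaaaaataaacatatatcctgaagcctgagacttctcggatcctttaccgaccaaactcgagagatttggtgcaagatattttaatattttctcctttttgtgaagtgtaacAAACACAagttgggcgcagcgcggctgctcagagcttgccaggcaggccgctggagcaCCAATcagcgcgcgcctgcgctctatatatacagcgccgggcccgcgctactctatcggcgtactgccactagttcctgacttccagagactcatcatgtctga
Hist1h2ac, minus strand, chr13:23683910-23684209: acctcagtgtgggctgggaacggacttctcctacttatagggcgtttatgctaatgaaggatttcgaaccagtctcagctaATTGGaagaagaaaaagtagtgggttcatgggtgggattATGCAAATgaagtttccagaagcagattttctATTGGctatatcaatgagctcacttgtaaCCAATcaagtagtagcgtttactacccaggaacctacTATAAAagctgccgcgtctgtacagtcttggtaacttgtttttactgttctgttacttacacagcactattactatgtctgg
Hist1h3b, plus strand, chr13:23752095-23752394: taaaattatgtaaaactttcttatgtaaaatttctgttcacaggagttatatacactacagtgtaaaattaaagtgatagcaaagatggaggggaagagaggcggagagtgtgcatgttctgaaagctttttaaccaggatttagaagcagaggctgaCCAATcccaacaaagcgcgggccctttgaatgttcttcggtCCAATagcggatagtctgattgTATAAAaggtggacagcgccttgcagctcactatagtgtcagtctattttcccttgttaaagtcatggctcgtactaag
Hist1h4d, plus strand, chr13:23581318-23581617: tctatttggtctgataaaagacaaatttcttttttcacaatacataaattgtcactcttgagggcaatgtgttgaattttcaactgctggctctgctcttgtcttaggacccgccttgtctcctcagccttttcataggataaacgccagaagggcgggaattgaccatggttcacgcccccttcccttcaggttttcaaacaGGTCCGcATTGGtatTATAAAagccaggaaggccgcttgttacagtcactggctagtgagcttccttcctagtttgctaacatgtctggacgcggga

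Similar sequence limits how far single members can be told apart. The authors counted a read that maps to several places for each of them, and 30 members share more than 50% of their 50-base stretches with another member. The median shared part was 1.1% in H1, 73% in H2A, 42.1% in H2B, 57.2% in H3 and 39.5% in H4. Alike values of paralogs within H2A, H2B, H3 or H4 may thus rest on the same reads, and a class sum counts such reads more than once. No 50-base stretch shared with any other gene was found for Hist1h1a, Hist1h1b, Hist1h1t and Hist2h2be. Hist2h2bb, Hist3h2ba and Hist4h4 share none with another member, but Hist2h2bb shares all of its stretches, Hist3h2ba 22.1% and Hist4h4 8.52% with other genes. The counting also used no strand option and counted a read that overlaps several genes for each of them. Reads of overlapping genes thus cannot be told apart where their exons overlap. That touches 24 members, among them Hist1h1e and Hist1h2be, which overlap each other on the same strand, and all 18 H2A genes.

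The libraries held 8669521 to 25810455 gene counts, of which the members took 0.471% to 0.564% at E16, 0.104% to 0.166% at P12, 0.0265% to 0.0311% at P80 and 0.0149% to 0.0414% at P310. From 9 to 38 members per adult library had fewer than 10 counts, against 1 or 2 at E16 and P12, and a member with no count in a sample may have up to 0.0636 TMM-scaled CPM in P12 replicate 2-3 and 0.396 in P310 replicate 1, the lowest and highest of the 12 samples, a limit of 3 counts that covers counting error only. Mitochondrial transcripts took 1.52% to 3.54% of the counts at E16 and 12.8% to 34.4% in the adult libraries. All 8 OPC markers (Pdgfra, Cspg4, Olig1, Olig2, Sox10, Gpr17, Ptprz1 and Lhfpl3) had at least 1 count in every sample, though Olig2 in P310 replicate 1 and Lhfpl3 in P80 replicate 3 and P310 replicate 3 had under 3. Their summed level was 341 to 405 CPM at E16, 514 to 572 at P12, 207 to 277 at P80 and 145 to 274 at P310. Pdgfra itself stood at 33 ± 6.96, 70.1 ± 33.2, 37.1 ± 18.4 and 30.7 ± 25.8 CPM at the 4 ages (mean ± SD). The sum of 8 immature neuron markers was 5811 to 7019 CPM at E16 and 249 to 264, 91.7 to 115 and 96.5 to 134 at the later ages, while that of 8 endothelial markers was 38.9 to 62.7 CPM at E16 and 3797 to 4927, 4631 to 5541 and 3645 to 6966 afterwards. The astrocyte sum was 204 to 256 CPM at E16 and 1306 to 1491 at P12, the microglia sum 67.1 to 96.8 and 804 to 864, and the ependymal and choroid plexus sum 90.04 to 158 and 872 to 5500.4. Mature oligodendrocyte markers set 2 samples apart, with a sum of 8178 CPM in P12 replicate 1 against 427 in replicate 2-3, and 67251 in P310 replicate 2 against 440.4 to 908 in the other P310 samples. The histone values below are therefore those of a mixed fraction, in which fewer cells of a dividing type and less histone RNA per cell cannot be told apart.

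Clustered histone RNA was high at E16 and low in the adult. Values are CPM, counts relative to the library's TMM-scaled total, listed in the order of the replicates. Summed over the 67 genes they were 4268, 5056 and 4209 CPM at E16, 1507 and 985 at P12, 262, 339 and 259 at P80, and 309, 236, 421 and 304 at P310. No later sample reached an E16 sample, no adult sample reached a P12 sample, and the P80 and P310 samples overlapped. The mean fell from 4511 ± 473 CPM at E16 (SD, n = 3) to 1246 ± 369 in the 2 P12 samples, 287 ± 45.2 in the 3 at P80 and 318 ± 76.7 in the 4 at P310. Relative to E16 these are 27.6%, 6.35% and 7.04%. At P12 replicate 1 stood above replicate 2-3, and the 2 libraries of the latter, scaled apart, held 946 and 1016 CPM. The mean was lower after each of the first steps and not after the last, as the plot of class sums shows for each class. The immature neuron, endothelial, astrocyte, microglia and choroid plexus sums given above move with the first step, and their part in it was not tested. P12 replicate 1, with the higher oligodendrocyte marker sum, also had the higher histone sum, and P310 replicate 2 the lowest of the P310 samples. Without P310 replicate 2 the log2 ratio of the P310 to the P80 sum was 0.27 in place of 0.15.

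Gene by gene the direction was nearly uniform. Of the 67 members 66 passed the low-count filter, the exception being Hist1h1t, so the counts below are not of all members. From E16 to P12 edgeR's quasi-likelihood test called 54 lower and 0 higher at an adjusted p under 0.05, where 10.5% of the 21170 genes tested were called lower and 16.7% higher. From P12 to P80 it called 46 lower and 0 higher, against 1.02% and 0.406% of all genes. Both contrasts are ones the set was selected on, so nothing is read from these counts. The median log2 change was -2.17 for the first step, where the median of all genes tested was 0.09, and -2.98 for the second (-0.03 for all genes). Every P12 sample was below every E16 sample for 65 of the 67 genes, against 30.9% of genes tested, and every P80 sample below every P12 sample for 62, against 15.5%. The calls leaned on single samples at P12, where n = 2. Without P12 replicate 2-3 the first step gave 14 lower calls, and without P12 replicate 1 the second gave 13. The second step also gave 25 without P80 replicate 1, 21 without P80 replicate 3 and 20 when only P12 and P80 were fitted, and where 1 sample was left at P12 it was assumed to vary like the other ages.

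**Figure D1:**
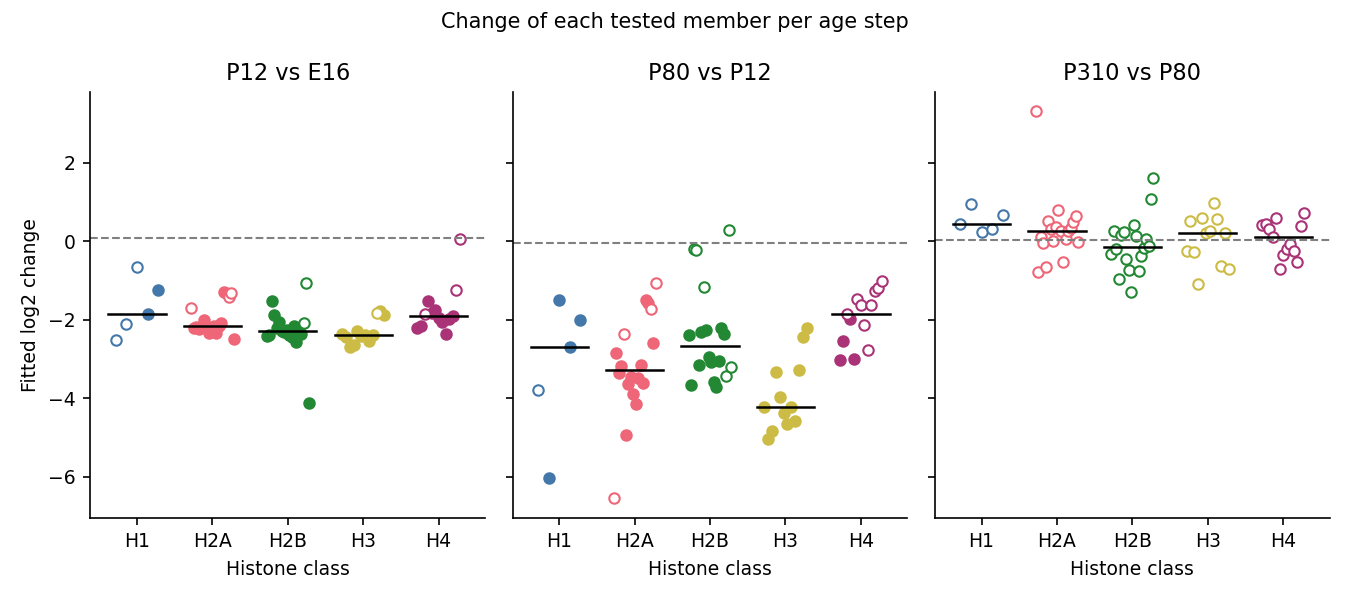
Fitted log2 change of each of the 66 tested members for the 3 age steps, by histone class; filled points were called lower at an adjusted p under 0.05, open points were not called. Black lines mark class medians and the dashed line the median of all genes tested; the H3 genes sit lowest in the second step, and the third step is centred near 0 with no calls.

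The H1 genes encode the linker histones that sit on DNA between nucleosomes. Their sum was 926, 1027 and 774 CPM at E16, 395 and 339 at P12, 98.1, 109 and 79.5 at P80, and 148, 83.7, 161 and 102 at P310, and P12, P80 and P310 held 40.4%, 10.5% and 13.6% of the E16 level. The 6 genes behaved unlike one another. Hist1h1c (ENSMUSG00000036181, chromosome 13, 23738808 to 23740367), at 168 CPM per kb of exon the highest of them at E16, was at 268, 302 and 216 CPM at E16, 180.1 and 152 at P12, 62.8, 69.4 and 45.4 at P80, and 81.6, 37.1, 103 and 56.4 at P310. Its first step did not pass the test (log2 change -0.66 ± 0.35 (SE), with all P12 samples below all E16 samples), and it kept 22.6% of its E16 level at P80. Hist1h1e (ENSMUSG00000051627, chromosome 13, 23620629 to 23622558) was at 243, 270.1 and 197 CPM at E16, 96.8 and 104 at P12, 25.4, 25.1 and 24.8 at P80, and 56.4, 34.9, 38.5 and 30.6 at P310, and kept 10.6% at P80. Hist1h1b (ENSMUSG00000058773, chromosome 13, 21779883 to 21780625), which shares no 50-base stretch with another member, was at 108, 103 and 89.1 CPM at E16, 30.1 and 16.8 at P12, 0.76, 0.124 and 0.0695 at P80, and 0, 0, 0.267 and 2.21 at P310. With a log2 change of -6.03 ± 1.14 (SE) it had the deepest second step of all called members, and without P80 replicate 1 the change was -7.90. Hist1h1a, at 88.6 CPM at E16 and 1.24 at P80, and Hist1h1d, at 222 and 9.55, kept 1.4% and 4.31%, the former 0.429% without P80 replicate 2 and 2.1% without P80 replicate 3. The testis linker histone gene Hist1h1t had at most 0.255 CPM in any sample and no count in 7 of the 12.

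H2A and H2B form the dimers that flank the H3 and H4 histones in the nucleosome core. The H2A sum of 18 genes was 1201, 1422 and 1279 CPM at E16, 422 and 248 at P12, 55.7, 78.2 and 47.3 at P80, and 54.4, 45.2, 90.2 and 82.4 at P310, leaving 25.7%, 4.64% and 5.23% of the E16 level. Of the 18 genes 15 were called lower in the first step (10.5% of all genes tested) and 14 in the second (1.02%), counts from which nothing is read. The highest per kb at E16 was Hist1h2af (ENSMUSG00000061991, chromosome 13, 23533906 to 23534304), at 105, 117 and 95.2 CPM at E16, 33 and 19.9 at P12, 1.27, 0.618 and 0.626 at P80, and 1.58, 0.66, 1.16 and 1.53 at P310, a fall to 0.793% at P80. The twin genes Hist2h2aa1 and Hist2h2aa2 on chromosome 3, which share most of their sequence and so most of their reads, kept more. Hist2h2aa1 (ENSMUSG00000064220, chromosome 3, 96245497 to 96246082) was at 89.1, 106 and 104 CPM at E16, 53.3 and 28 at P12, 13.3, 15.4 and 14.5 at P80, and 14.6, 15, 22 and 17.8 at P310, and kept 14.5% at P80, with Hist2h2aa2 at 13.6%. Their neighbour Hist2h2ab was low throughout, at 10.6 ± 3.25 CPM at E16 and 1.25 ± 1.37 at P80, and Hist2h2ac went from 67.7 ± 11.9 to 4.48 ± 1.83. Hist3h2a on chromosome 11 overlaps the coding gene Trim17. Hist3h2a stood at 80.5 ± 4.82 at E16, 14.4 ± 3.54 at P12, 7.0 ± 4.73 at P80 and 6.82 ± 2.18 at P310 CPM. Its second step was not called (log2 change -1.06 ± 0.49 (SE)). Hist1h2aa, known from testis, was at 2.09, 3.08 and 2.12 CPM at E16 and had no count at P80.

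The 18 H2B genes summed to 947, 1121 and 984 CPM at E16, 293 and 147 at P12, 53.9, 79.1 and 64.1 at P80, and 52.8, 45.6, 70.2 and 61.1 at P310, which is 21.6%, 6.46% and 5.65% of E16. Members of this class ended at very different levels. Hist3h2ba (ENSMUSG00000056895, chromosome 11, 58948920 to 58949533) had the steepest first step of the tested members, from 44.4, 48.8 and 65 CPM at E16, 2.86 and 3.14 at P12, 0.507, 0.494 and 0 at P80, and 1.72, 1.54, 0.891 and 0 at P310, a log2 change of -4.13 ± 0.95 (SE), and at P12 it kept 5.69%. At the other end stood Hist2h2be (ENSMUSG00000068854, chromosome 3, 96221119 to 96223738), an H2B gene known for its expression in olfactory sensory neurons, at 4.89, 5.61 and 8.25 CPM at E16, 2.86 and 3.16 at P12, 3.04, 5.43 and 2.71 at P80, and 12.8, 5.5, 7.58 and 5.78 at P310. None of its steps was called (log2 changes -1.05 ± 0.57 (SE), 0.30 ± 0.56 (SE) and 1.09 ± 0.48 (SE)), and at P310 it averaged 127% of E16, with P310 replicate 1 the highest of the 12 samples. Hist1h2bc (ENSMUSG00000018102, chromosome 13, 23684199 to 23692908) was at 61.5, 72.4 and 58.8 CPM at E16, 31 and 14.2 at P12, 16.4, 22.2 and 20.5 at P80, and 19.8, 11.3, 20.3 and 17.2 at P310. Its first step was called lower and its second was not (log2 changes -1.51 ± 0.37 (SE) and -0.19 ± 0.35 (SE); the first was -2.18 without P12 replicate 1), and it kept 30.7% at P80. Hist1h2be (ENSMUSG00000047246, chromosome 13, 23583670 to 23621124) was at 59.3, 64.1 and 58.6 CPM at E16, 22.6 and 10.7 at P12, 7.86, 21.7 and 13.3 at P80, and 7.65, 5.83, 7.04 and 8.92 at P310. Its P12 and P80 samples overlapped, and its reads cannot be parted from those of Hist1h1e where the 2 genes overlap. Without P12 replicate 1 the second steps of Hist1h2bc and Hist1h2be were 0.47 and 0.41. Hist1h2bf, the H2B gene with the second highest level per kb at E16, followed the class from 97.9 ± 11.2 CPM at E16 to 2.38 ± 0.115 at P80. Hist2h2bb, the highest, went from 102 ± 19.4 to 2.16 ± 2.22, and the testis H2B gene Hist1h2ba from 38 ± 2.86 to 1.36 ± 0.0968.

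H3 and H4 pair into the tetramer at the centre of the nucleosome, yet their genes ended at different levels. The 12 H3 genes summed to 661, 818 and 610.1 CPM at E16, 174 and 113 at P12, 10.4, 12 and 16.3 at P80, and 6.07, 5.72, 16.7 and 19.7 at P310. This is 20.7% of E16 at P12, then 1.85% and 1.73%, the lowest adult shares of the 5 classes. In the second step, on which the set was selected, 12 of 12 H3 genes were called lower (1.02% of all genes tested), with a median log2 change of -4.22. Hist1h3b (ENSMUSG00000069267, chromosome 13, 23752267 to 23752886) was at 70.03, 95.1 and 68.8 CPM at E16, 18.2 and 10.8 at P12, 0.317, 0.618 and 0.417 at P80, and 0.132, 0.11, 0.713 and 1.36 at P310, with a second step of -5.05 ± 0.63 (SE). Hist1h3c (ENSMUSG00000069310, chromosome 13, 23744973 to 23745602) was at 52.5, 70.1 and 50.1 CPM at E16, 11.5 and 6.45 at P12, 0.443, 0.247 and 0.209 at P80, and 0.264, 0.44, 0 and 0.34 at P310, with a second step of -4.82 ± 0.59 (SE), and kept 0.521%. The 3 H3 genes of the Hist2 cluster kept more, with 3.09% for Hist2h3b, 5.38% for Hist2h3c1 and 5.84% for Hist2h3c2, while the 9 of the Hist1 cluster ended at or below 1.55%, the share of Hist1h3d. Single samples moved these shares: without P80 replicate 2 Hist2h3b kept 1.18% and Hist1h3d 1.91%, and without P80 replicate 3 Hist2h3c2 kept 3.5% and Hist1h3d 0.882%. Hist2h3c1, for example, stood at 57.5 ± 5.8 at E16, 16.7 ± 3.06 at P12, 3.09 ± 0.545 at P80 and 3.56 ± 2.28 at P310 CPM.

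The 13 H4 genes summed to 533, 667 and 562 CPM at E16, 223 and 138 at P12, 43.4, 60.8 and 52.2 at P80, and 47.9, 56, 83.6 and 38.7 at P310, or 30.7%, 8.87% and 9.62% of E16. In the second step 4 of 13 were called lower (1.02% of all genes tested), which is likewise a description, with a median log2 change of -1.84. Hist1h4d (ENSMUSG00000061482, chromosome 13, 23581598 to 23582735) was at 141, 168 and 129.9 CPM at E16, 59.7 and 43 at P12, 11.7, 16.8 and 10.9 at P80, and 15.7, 6.93, 23.7 and 10.7 at P310, and kept 8.99% at P80. Hist1h4h, the highest H4 gene per kb at E16, went from 69.2 ± 13.2 CPM to 7.41 ± 2.29 at P80. Hist2h4 was at 23.8, 27 and 26.6 CPM at E16, 14.1 and 7.82 at P12, 3.23, 4.69 and 6.47 at P80, and 1.72, 3.96, 14.8 and 4.5 at P310, and kept 18.6%. The solitary Hist4h4 (ENSMUSG00000096010, chromosome 6, 136801553 to 136804415) did not follow the rest. It was at 11.4, 17.7 and 14.8 CPM at E16, 9.7 and 20.5 at P12, 5.64, 10.3 and 6.95 at P80, and 17, 17.2, 9.0 and 6.88 at P310, with overlapping samples in all 3 steps and log2 changes of 0.05 ± 0.49 (SE), -1.0 ± 0.49 (SE) and 0.72 ± 0.42 (SE). It was the only tested member whose fitted first step was above 0, and without E16 replicate 1 or P12 replicate 2-3 that step was -0.10 or -0.59.

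Unequal falls changed the make-up of the remaining histone RNA. H1 genes made up a mean of 20.1% of the members' summed CPM at E16, 30.3% at P12, 33.4% at P80 and 38.8% at P310. H3 genes went from 15.4% to 11.5%, 4.6% and 3.71%. H2A genes made up 28.9%, 26.6%, 20.9% and 21.3%, H2B genes 22.6%, 17.2%, 22.9% and 18.3%, and H4 genes 13%, 14.4%, 18.2% and 17.9%. The lowest H1 share of an adult sample was 30.6% in P80 replicate 3, above the highest E16 share of 21.7%, and the highest adult H3 share was 6.48% in P310 replicate 4, below the lowest P12 share of 11.5%. These are shares of counts, which grow with transcript length and with reads counted for several paralogs.

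**Figure D2:**
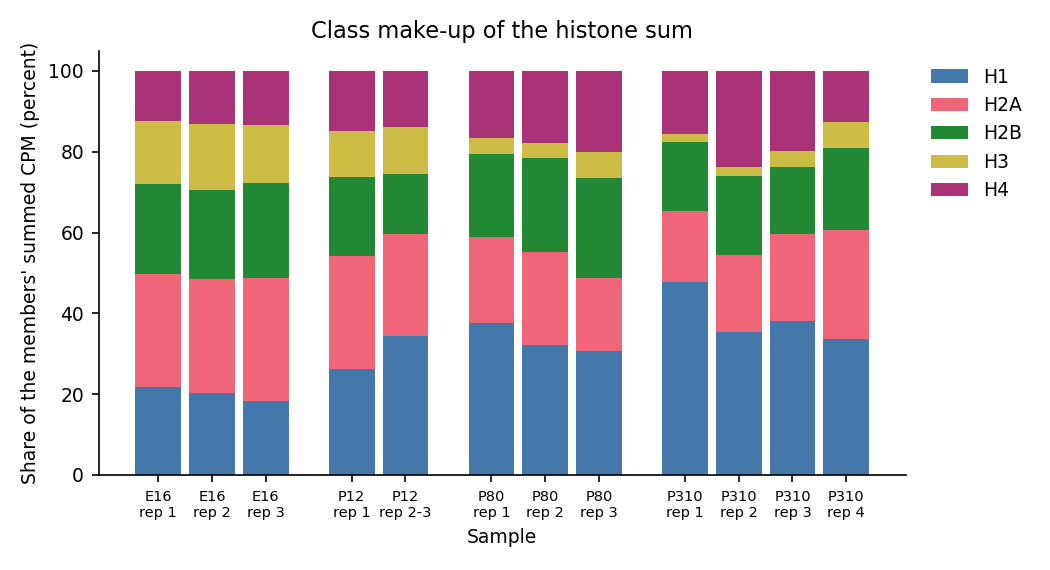
Share of the members' summed TMM-scaled CPM taken by each histone class in each of the 12 samples. The H1 part grows from 18.4% to 21.7% at E16 to 30.6% or more in the adult samples, and the H3 part shrinks from 14.5% or more to 6.48% or less.

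Members differed in how much of their level was left in the adult. The median member kept 22.4% of its E16 level at P12, 2.87% at P80 and 2.66% at P310. At P80 45 of the 67 were under 5% of E16 and 12 were at 10% or more. Those 12 were Hist1h1c, Hist1h1e, Hist2h2aa1, Hist2h2aa2, Hist2h2ab, Hist1h2bc, Hist1h2be, Hist2h2be, Hist1h4h, Hist1h4n, Hist2h4 and Hist4h4, and no H3 gene was among them. Without P80 replicate 2 they were 10, with Hist2h2ab at 4.36% in place of 11.8% and Hist1h4h at 9.45%. By cluster, the Hist1 sum kept 5.8%, the Hist2 sum 9.02%, the Hist3 sum 5.5% and Hist4h4 52%. The medians also differed with the transcript model. The 22 genes whose model runs more than 150 bases past the stem-loop kept a median of 5.61% at P80 (range 0 to 52%), the 22 whose model ends sooner 2.72% (0.521 to 14.5%) and the 23 with no match 1.89% (0 to 59.6%). The groups overlap widely, and longer models can also collect more counts that are not from the processed RNA. Whether the adult counts lie before or after the stem-loop was not tested, since the files hold 1 count per gene.

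**Figure D3:**
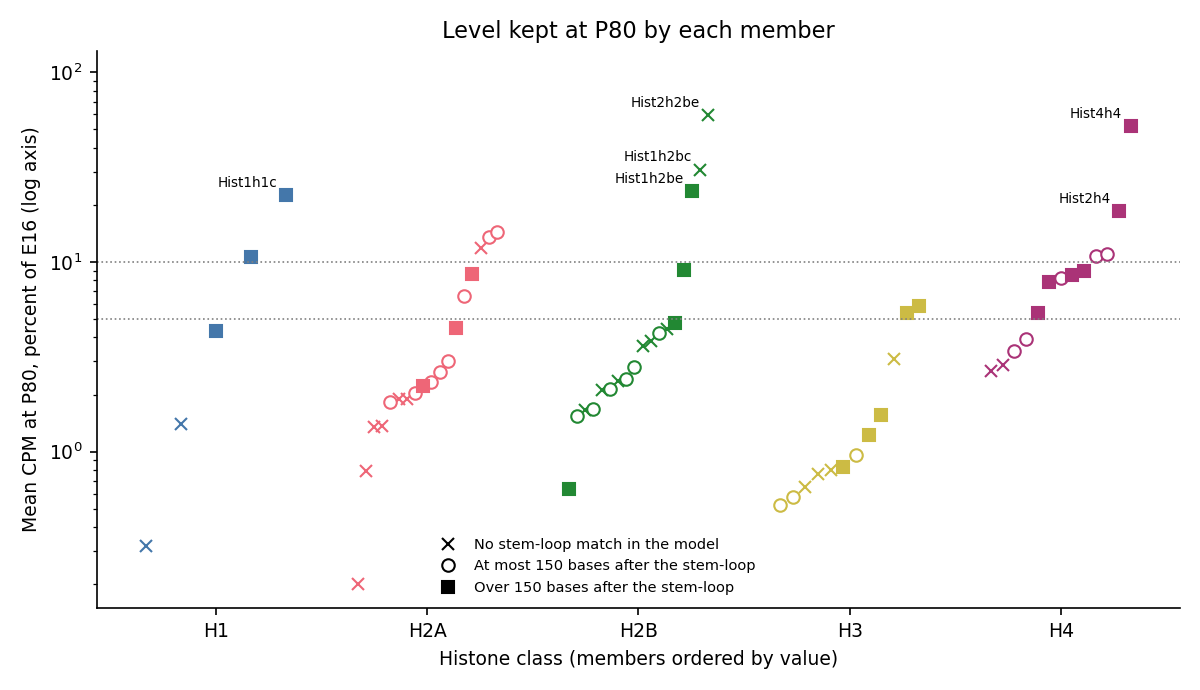
Mean CPM at P80 as a percent of the E16 mean (log axis) for 66 members, Hist1h1t left out, ordered within each class; squares have more than 150 bases after the stem-loop in the transcript model, circles at most 150, crosses no match. Members at 15% or more are named, Hist1h2aa with no P80 count is drawn at the foot of the plot, and dotted lines mark 5% and 10%; no H3 gene reaches the upper line.

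Genes of a divergent pair share the stretch between their starts but did not always keep alike levels. In the 11 pairs whose H2A gene had counts at P80 the H2B gene kept more of its E16 level at P80 than its H2A partner. In the other pair Hist1h2aa had no count there, so the comparison with Hist1h2ba could not come out otherwise. The order within pairs leaned on single P80 samples. Without P80 replicate 1 Hist1h2ae kept 6.07% and its partner Hist1h2bg 4.34%, and Hist1h2ak 1.63% and Hist1h2bn 1.07%. Without P80 replicate 3 Hist1h2ae kept 5.78% and Hist1h2bg 3.75%, and Hist1h2ad 2.53% and Hist1h2bf 2.36%. In the other pairs with H2A counts at P80 the H2B gene still kept more. Over the 12 pairs the H2B and H2A genes had medians of 3.71% and 1.97%. The H2B gene kept more in 5 of 12 pairs at P12 and 9 of 12 at P310. The gap was widest in 2 pairs. Hist1h2ac, whose promoter window is printed above, kept 2.22% at P80 where Hist1h2bc, starting 251 bases away, kept 30.7%. The former was 1.47% without P80 replicate 2. Hist2h2ac kept 6.61% and Hist2h2be, 239 bases away, 59.6%. In Hist1h2ad and Hist1h2bf, 185 bases apart, the values were 2.34% and 2.43%. The H2A and H2B members differ in how much sequence they share with paralogs, so these shares rest on different pools of reads.

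Between P80 and P310 no change passed the test. Of the 66 members edgeR called 0 lower and 0 higher, where 0.0% of all genes tested were called in either direction. DESeq2 called 0 members and 31 of 23412 genes. At an unadjusted p under 0.05 edgeR gave 1 lower and 2 higher, 4.55% of members against 5.49% of all genes. DESeq2 gave 3 lower and 3 higher, 8.96% of members against 5.43% of all genes. The fitted change was below 0 for 26 members and above 0 for 40, with a median of 0.18 (all genes 0.03). For 0 of the 67 genes was every P310 sample below every P80 sample, against 2.59% of genes tested. For 2, Hist1h1e and Hist2h2be, every P310 sample was above every P80 sample, against 2.27% of genes tested. Of the H1 genes Hist1h1e was highest in P310 replicate 1, at 56.4 CPM, and Hist1h1c in P310 replicate 3, at 103 CPM. At these depths a summed H3 level of 5.72 to 19.7 CPM over 12 genes leaves single H3 genes close to the limit of detection.

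Lists of related genes, which were put together with earlier results of these data known, kept different parts of their E16 sums. Slbp is counted both in the list of S phase and DNA synthesis and in that of histone mRNA factors. Adjusted p of the genes in the lists are from edgeR's quasi-likelihood test over all genes. It called 10.5% of the 21170 genes tested lower and 16.7% higher from E16 to P12, and 1.02% and 0.406% from P12 to P80. Among 31 genes of S phase and DNA synthesis 12 fell and 0 rose from E16 to P12, with a median log2 change of -1.21, and 1 fell from P12 to P80. Without P12 replicate 1 or replicate 2-3 the first count was 6 or 3, and the second ranged from 0 to 5 with each replicate left out in turn. Pcna, the sliding clamp of DNA polymerases, was at 21.7, 39.2 and 47.7 CPM at E16, 21.7 and 11.6 at P12, 9.82, 4.2 and 19.3 at P80, and 11.7, 4.84, 15.9 and 8.41 at P310, and passed in neither step (log2 change -1.12 ± 0.61 (SE), adjusted p = 0.193; log2 change -0.57 ± 0.58 (SE), adjusted p = 0.883). Mcm7, a subunit of the replicative helicase, fell in the first step (log2 change -2.23 ± 0.36 (SE), adjusted p = 0.000255), as did the licensing helicase subunit Mcm6 (log2 change -1.21 ± 0.30 (SE), adjusted p = 0.00749) and Lig1, the ligase that joins Okazaki fragments (log2 change -1.46 ± 0.29 (SE), adjusted p = 0.00169). The catalytic polymerase subunit gene Pole fell in the second (log2 change -2.49 ± 0.54 (SE), adjusted p = 0.0326). The summed CPM of the list at P80 was 20.9% of E16, so the ratio of the histone sum to it went from 3.79 ± 0.421 at E16 to 2.86 ± 0.363 at P12, 1.15 ± 0.217 at P80 and 1.29 ± 0.193 at P310 (mean ± SD). Among 20 genes of G2 and mitosis 5 fell in the first step and 10 in the second, with medians of -1.66 and -3.84. The 5 became 1 without P12 replicate 1, P12 replicate 2-3, E16 replicate 1 or E16 replicate 3 and 2 without E16 replicate 2, and the 10 became 6 without P12 replicate 1. Top2a, which untangles replicated chromosomes, fell in both (log2 change -1.86 ± 0.39 (SE), adjusted p = 0.00241; log2 change -4.004 ± 0.39 (SE), adjusted p = 0.000189). The proliferation marker Mki67 was at 556, 488 and 382 CPM at E16, 197 and 177 at P12, 6.52, 6.05 and 5.08 at P80, and 0.396, 1.87, 6.42 and 25.8 at P310, with the P310 samples far apart from one another, and passed in neither (log2 change -1.35 ± 1.08 (SE), adjusted p = 0.403; log2 change -4.99 ± 1.14 (SE), adjusted p = 0.0835). At P80 this list stood at 2.57% of E16, below the 6.35% of the histone sum.

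Variant histones, which can be made outside S phase and whose RNAs usually carry poly(A) tails, were called lower mostly in the first step. Of 11 genes 10 fell from E16 to P12 (median log2 change -1.69) and 1 from P12 to P80, against 10.5% and 1.02% of all genes tested. The 10 became 5 without P12 replicate 2-3, and the 1 ranged from 0 to 2 with each replicate left out in turn. H3f3b, which encodes a replacement H3 used outside S phase, was at 506, 489 and 756 CPM at E16, 208 and 168 at P12, 159, 171 and 168 at P80, and 145, 180.1, 212 and 158 at P310. It fell in the first step (log2 change -1.63 ± 0.25 (SE), adjusted p = 0.000189) and did not pass in the second (log2 change -0.18 ± 0.24 (SE), adjusted p = 0.922). H3f3a, the other gene for this replacement H3, did the same (log2 change -1.62 ± 0.35 (SE), adjusted p = 0.00292; log2 change -0.46 ± 0.33 (SE), adjusted p = 0.778). H2afx, whose product is phosphorylated at DNA breaks, went from 82.5 ± 2.71 CPM at E16 to 22 ± 2.63, 6.68 ± 1.81 and 5.43 ± 3.15 (log2 change -1.91 ± 0.47 (SE), adjusted p = 0.00704; log2 change -1.73 ± 0.44 (SE), adjusted p = 0.0786). H2afz, the H2A variant of promoter nucleosomes, fell in the first step (log2 change -1.69 ± 0.54 (SE), adjusted p = 0.0313) and did not pass in the second (log2 change -1.31 ± 0.50 (SE), adjusted p = 0.358). H1f0, the linker histone of differentiated cells, was at 261, 259 and 293 CPM at E16, 99.4 and 94.1 at P12, 61.9, 60.2 and 50.1 at P80, and 96.9, 98.2, 67 and 54.6 at P310, a fall in the first step (log2 change -1.49 ± 0.27 (SE), adjusted p = 0.000656), and the other linker gene H1fx fell in both (log2 change -2.92 ± 0.52 (SE), adjusted p = 0.000696; log2 change -2.08 ± 0.47 (SE), adjusted p = 0.0426). The summed CPM of the variants kept 21.5% of E16 at P80.

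The factors that make, process and degrade histone mRNA kept the largest part of their summed E16 level among the 5 lists. Of 21 genes 5 fell in the first step (median -0.72), none rose, and none passed in the second (median -0.03). Over all genes tested 10.5% fell in the first step and 1.02% in the second. Without P12 replicate 1 or replicate 2-3 the 5 became 2 or 0. Slbp, the stem-loop binding protein, was at 33.2, 39.6 and 60.9 CPM at E16, 21 and 18.4 at P12, 12, 11 and 21.2 at P80, and 9.11, 7.26, 10.6 and 13.9 at P310, a fall in the first step (log2 change -1.18 ± 0.40 (SE), adjusted p = 0.041) and none that passed in the second (log2 change -0.42 ± 0.39 (SE), adjusted p = 0.858). Npat, the coactivator of all clustered histone genes, was at 21.1, 19.3 and 16.7 CPM at E16, 24.8 and 18.9 at P12, 13.2, 22.9 and 6.26 at P80, and 27.2, 18.4, 16.2 and 15.6 at P310, and did not pass in either step (log2 change 0.20 ± 0.44 (SE), adjusted p = 0.787; log2 change -0.64 ± 0.44 (SE), adjusted p = 0.763). Casp8ap2, a partner of Npat at histone gene clusters, fell in the first step (log2 change -1.15 ± 0.33 (SE), adjusted p = 0.0183), as did the cleavage factor genes Cpsf3, which encodes the nuclease (log2 change -0.97 ± 0.22 (SE), adjusted p = 0.00451), and Cpsf2 (log2 change -1.18 ± 0.30 (SE), adjusted p = 0.00807). The U7 particle proteins Lsm10 and Lsm11 did not pass (log2 change -1.47 ± 0.98 (SE), adjusted p = 0.296 and log2 change -1.65 ± 0.59 (SE), adjusted p = 0.0509 in the first step). The list kept 70.7% of its summed E16 level at P80. Of 21 histone chaperones and assembly factors 8 fell in the first step (5 without P12 replicate 1, 2 without P12 replicate 2-3) and none passed in the second. Nasp, the carrier of soluble H1 and H3, fell most among those called (log2 change -2.82 ± 0.29 (SE), adjusted p = 4.1e-06), and Nap1l1 (log2 change -1.91 ± 0.48 (SE), adjusted p = 0.00916), Ssrp1 (log2 change -1.24 ± 0.29 (SE), adjusted p = 0.00544) and Supt16 (log2 change -1.16 ± 0.23 (SE), adjusted p = 0.0016) fell too, the latter pair forming the FACT complex that moves H2A and H2B. The chaperone sum kept 38.1% at P80.

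**Figure D4:**
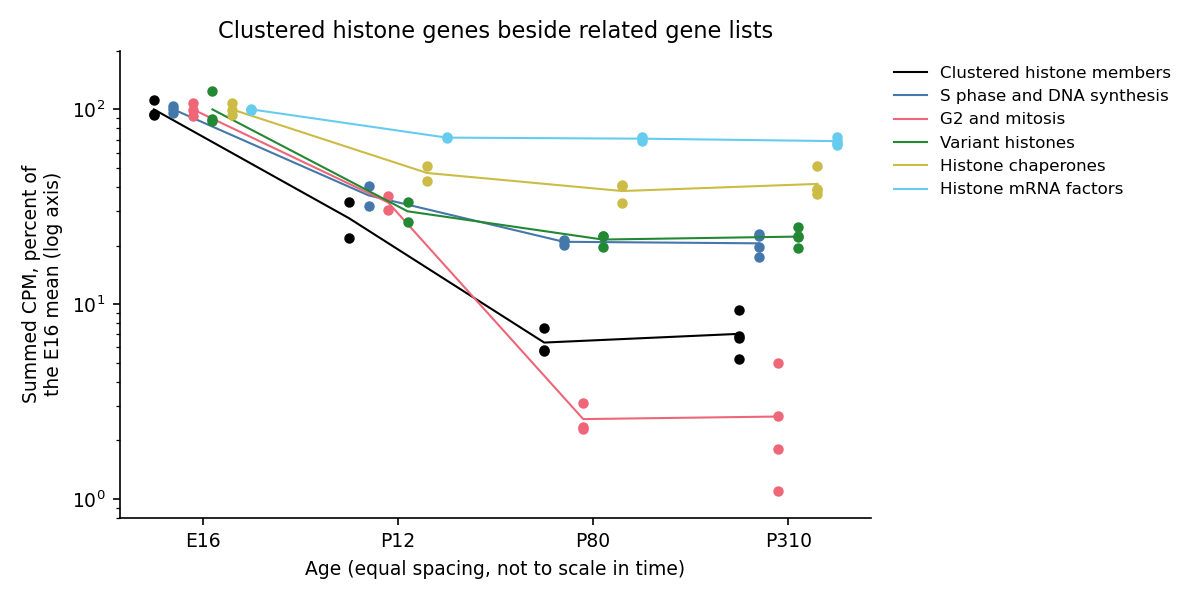
Summed TMM-scaled CPM of the clustered histone genes and of 5 lists of related genes, each as a percent of its own E16 mean (log axis); points are samples and lines join the means of each age. At P80 the clustered histone genes stand at 6.35%, between the G2 and mitosis list at 2.57% and the S phase and variant histone lists at 20.9% and 21.5%.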

How the data were processed

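Total RNA of Pdgfra-sorted mouse brain cells was made into libraries with a stranded low-input kit, per the labels' protocols. Reads were trimmed with Trim Galore and aligned with TopHat2 2.1.1, per the submitters' processing notes. What the authors deposited are unscaled counts for each gene, from featureCounts 1.5.0-p1 on exons of Ensembl GRCm38 release 92, per the file headers. A minimum overlap of 10 bases was set, no strand option was used, and reads that map to several places or overlap several genes counted for each of them, so paralogs and overlapping genes share reads.

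Symbols came from GENCODE M21, and 37715 of 37785 identifiers matched. P12 replicates 2 and 3 were summed. Genes kept by filterByExpr (21170) were scaled by TMM. The 12 samples entered 1 fit, in which each age had its own mean, by the robust quasi-likelihood test of edgeR 4.0.16 in R 4.3.3, with Benjamini-Hochberg adjustment over all genes tested and a threshold of 0.05. The common biological coefficient of variation was 0.513. CPM are TMM-scaled. The test was tried on simulated data first. Stem-loops, shared 50-base stretches and motifs were searched with Python 3.11.15 in the GENCODE transcripts and RefSeq promoters (GRCm38.p6).

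The members, the lists of related genes and the markers were chosen with earlier results of these data known. Named members were, by rule, the 2 of each class with the highest CPM per kb, the 3 largest rises and 3 largest falls per step, those outside the Hist1 cluster, Hist1h1c, Hist1h2bc, Hist2h2be, Hist1h1t, Hist1h2aa and Hist1h2ba. Others named (Hist1h1a, Hist1h1d, Hist1h2ac, Hist1h2ad, Hist1h2ae, Hist1h2ak, Hist1h2bg, Hist1h2bn, Hist1h4j, Hist1h4k and Hist1h4n) were added after their values were seen. Of each list, up to 4 called genes per step with the smallest adjusted p and a few set genes were named. Alternatives tried were RLE size factors, no mitochondrial genes, P12 replicates 2 and 3 apart, no filter and a stricter one (1 CPM in 3 samples), DESeq2 1.42.0, only the 2 ages compared, a replicate block, each replicate left out, and sums without overlapping members.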

Additional observations from a re-analysis of the deposited data

Results flagged for a closer look

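In the 4 P310 samples a value was marked when it lay far from the other 3 by Dixon's criterion, which marks about 1 group in 20 by chance. Of 35 sums and members looked at, 3 were marked. Hist1h1b stood at 2.21 CPM in P310 replicate 4 and at 0 to 0.267 CPM in the others. Hist1h1t stood at 0.255 CPM there and had no count in the others. This value is 3 counts, and with the other 3 samples at 0 any count would have been marked. Hist2h3b was lowest in P310 replicate 1, at 0.264 CPM, with 1.19 to 1.32 CPM in the others.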

How the results depend on the processing

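Of the counts and class sums, 34 values moved beyond their limits under an alternative and 392 did not. Members called lower numbered 54 from E16 to P12 and 46 from P12 to P80; leaving out each replicate gave 14 to 58 and 13 to 47, with only the 2 ages compared 62 and 20, and with DESeq2 58 and 53. Genes of the lists called lower numbered 39 and 12, or 11 to 45 and 6 to 21 with each replicate left out. The 39 became 70 with only the 2 ages compared, and the 12 became 21 with P12 replicates 2 and 3 apart, 22 with DESeq2 and 32 with no filter, where 3 rose from P80 to P310. In either direction, DESeq2 called 7158 of 20509 genes from E16 to P12 and 631 of 18792 from P12 to P80. Counts under an alternative thus cannot be set against the edgeR shares of all genes given above. The replicate numbers were shared across ages but samples of a number did not deviate together; with a replicate block 50, 39 and 0 members were called lower in the 3 steps, and the change of Npat from E16 to P12 was −0.054 in place of 0.20.

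With each replicate left out, log2 ratios of the summed CPM from E16 to P12 ranged from −2.20 to −1.58 over all members, −2.39 to −1.62 for H2A, −2.79 to −1.80 for H2B, −2.62 to −1.996 for H3 and −2.09 to −1.40 for H4. From P12 to P80 they ranged from −2.39 to −1.78 over all members, −2.16 to −1.16 for H2B and −2.10 to −1.40 for H4. The test does not establish the direction of an uncalled single-gene change, and some of these changed sign. Npat ranged from −0.012 to 0.38 from E16 to P12. From P12 to P80 Casp8ap2 ranged from −0.15 to 0.36, Lsm10 from −0.20 to 2.35 and H3f3a from −0.82 to 0.012. Other uncalled changes kept their sign with each replicate left out, such as that of Mki67 from P12 to P80 (−5.07 to −4.83).

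Keeping only members with under 5% of their sequence shared with other members, an alternative chosen after seeing the data, left no H3 gene. It gave log2 ratios from E16 to P12 of −2.03 for H1, −2.45 for H2A and −0.63 for H4, and from P12 to P80 of −3.17 for H1, −1.12 for H2A, −2.29 for H2B and −1.07 for H4. From P80 to P310 it gave 0.46 over all members, 0.82 for H2B and 0.60 for H4. It sums fewer genes, and the cause was not tested beyond that. The H2A sum was of Hist1h2aa and Hist3h2a only, and the H4 sum of Hist2h4 and Hist4h4 only. Sequence shared with genes outside the set was not part of the cut. With any other gene counted, Hist2h2bb shared 100%, Hist3h2a 31.5%, Hist1h2aa 23.8%, Hist3h2ba 22.1% and Hist4h4 8.52%. These sums can therefore still hold reads shared with other genes. No 2 members had identical models, and no sum without overlapping members could be made for H2A. In the adult, 3 counts is the limit of what these depths show for a member.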

Other observations

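The annotation used by the authors holds a second layer of models on the histone genes. All 18 H2A genes overlap at least 1 other gene, and 17 of the overlapping models, most of them 138 bases long, are annotated as miRNA. Gm44297, which overlaps Hist1h2af, was at 100.3, 111 and 89.98 CPM at E16 and 1.27, 0.618 and 0.487 at P80. Hist1h2af itself was at 105, 117 and 95.2 CPM and 1.27, 0.618 and 0.626. A read that overlaps both genes was counted for each, and these counts cannot be taken as a level of a miRNA.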
